A study of Mus musculus with 3 samples.

Results

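The heat shock proteins and chaperones described here are 10 genes of the 27998 in the deposited count matrix: Hspa1a, Hspa1b, Hspb1, Dnajb1, Hsph1, Hsp90aa1, Hspa8, Hsp90ab1, Hspa5 and Hspe1. They were found as the rows whose gene symbol is one of these names, and all 10 were present. The list was chosen after measured values of these data had been seen (Hspa1a and Hspb1 were higher in library 3 than in library 2), so levels between libraries are given as a description, without a test. The study asked how microglia, the resident macrophages of the central nervous system, divide in the spinal cord after a peripheral nerve is cut. Single cells were sequenced from the lumbar cord of young adult C57BL/6 mice carrying 1 copy of Cx3cr1-creER-yfp, either naïve or 24 h or 48 h after sciatic nerve transection (SNTr24h and SNTr48h). All groups carried the Cx3cr1-driven allele, and cells were sorted for YFP, so the sort itself rests on Cx3cr1, a receptor of microglia that some other myeloid cells share. The cords of several animals were pooled before sorting, giving 1 library for each of the 3 groups, with no replicate. Cell barcodes carry the suffix 1, 2 or 3, and nothing in the labels ties a suffix to a group. The libraries are therefore called library 1, 2 and 3, of unknown time point.

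Heat shock proteins are chaperones, which hold unfolded proteins, help them to fold and pass those beyond repair to degradation. When misfolded proteins accumulate, the transcription factor HSF1 is released, forms a trimer and binds heat shock elements, runs of the unit GAA and its reverse complement TTC, upstream of the inducible chaperone genes. The endoplasmic reticulum and the mitochondrion have chaperones of their own, under separate stress pathways.

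The matrix held 609, 3591 and 3322 cells of libraries 1, 2 and 3, with a median of 2218, 5952 and 5742 unique molecular identifiers (UMIs, counts of single captured transcripts) per cell. Mitochondrial genes took a median of 0.945% to 1.52% of a cell's UMIs. The cells were read for 10 microglia markers. P2ry12, Tmem119 and Csf1r were each found in 99.7% of all cells, and Sall1, the lowest of the 10, in 42.3%. Cx3cr1 was found in 99.3%, but the sort rests on this gene, so its share is no check of the sort. In library 1, the shallowest, P2ry12 was found in 96.9%, Cx3cr1 in 95.1% and Fcrls in 85.9% of cells. Marker lists of monocytes, perivascular macrophages, neurons and red blood cells each summed to at most 8.93 UMIs per 1000000 UMIs (CPM) in every library, against 22976 to 28093 for the microglia list. The astrocyte list summed to 103 to 167, the oligodendrocyte list to 143 to 148 and the endothelial list to 15.1 to 35. Single genes gave most of the astrocyte and endothelial sums, Slc1a3 (98.8 to 164) and Pecam1 (14.8 to 35). Cnp (64.8 to 84.1) and Mag (36.6 to 50.5) led the oligodendrocyte list. Of the barcode sequences, 24 occurred in 2 libraries and 1 in all 3, which is 51 cells, and the counts of members given here were the same without them. The libraries also differed in other genes: a list of 20 immediate early genes summed to 2971, 3562 and 31359 CPM in libraries 1, 2 and 3, and a list of 19 proliferation genes to 141, 1202 and 268.

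The sequence upstream of the members was read from RefSeq (GRCm38.p6), which gave a window for 7 of the 10 genes. Hspa8, Hsp90aa1 and Hsp90ab1 had none. Positions count back from the RefSeq start, with -1 the base just before it. Shown first are the 250 bases before Hspa1a (chr17:34972157-34972406, minus strand) and Hspb1 (chr5:135887669-135887918, plus strand), the genes with the widest gaps between libraries, with each GAANNTTC or TTCNNGAA pair in capitals and, for Hspa1a, also the CCAAT box, read here on the other strand as ATTGG.
Hspa1a: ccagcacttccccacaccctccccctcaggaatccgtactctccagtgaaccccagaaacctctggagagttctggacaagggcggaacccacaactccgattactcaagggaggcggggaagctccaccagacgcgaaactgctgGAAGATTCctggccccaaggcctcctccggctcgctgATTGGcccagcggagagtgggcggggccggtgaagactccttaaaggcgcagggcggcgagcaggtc
Hspb1: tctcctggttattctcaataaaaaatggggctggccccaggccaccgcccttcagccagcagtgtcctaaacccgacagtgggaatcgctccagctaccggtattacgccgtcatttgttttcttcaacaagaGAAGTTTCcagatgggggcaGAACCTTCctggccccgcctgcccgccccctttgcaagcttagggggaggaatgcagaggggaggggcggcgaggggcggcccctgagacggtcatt
A shorter stretch of 30 bases is shown for Hspe1 (chr1:55088053-55088082, plus strand), with 4 alternating units in a row in capitals, and for Hspa5 (chr2:34772020-34772049, plus strand), with the endoplasmic reticulum stress element in capitals, CCAAT and CCACG separated by 9 bases.
Hspe1: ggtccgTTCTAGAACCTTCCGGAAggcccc
Hspa5: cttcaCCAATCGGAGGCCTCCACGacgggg

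Hspa1a and Hspa1b each held 1 GAANNTTC pair at position -104 and a CCAAT box at -67. Their 250 bases differed at 3 positions, C44T, T47C and T249G (Hspa1a first, counted from 1 at the 5′ end), an identity of 98.8%. Hspb1 held pairs at -117 and -97, and Hsph1 held a single TTCNNGAA at -33 or -54 by its 2 annotated starts. A pair of either kind, counted on both strands since each is its own reverse complement, lay in 12.8% of the 32851 windows of all genes. Hspe1 was the only member with longer runs: 4 units in a row were found in 7 windows, 0.0213% of all, of which Hspe1 was 1. Another was a window of Hspd1, the partner gene that starts on the opposite strand, whose other window held none. The stress element of Hspa5, at -65, lay in 0.113% of windows on either strand. The 2 windows of Dnajb1 and that of Hspa5 held no pair. GENCODE places the windows of Hspa1a, Hspa1b and Hspb1 outside its exons, counted for any gene on either strand. In the same count, 120 of the 250 bases before Hspa5 and all 250 before Hspe1 lie in annotated exons. GENCODE starts Hspa5 at chr2:34771970 and Hspe1 at chr1:55088132, both inside these windows, so their starts differ between annotations. The bases of the Hspe1 window that precede its GENCODE start lie in exons of another gene. A match says only that these letters are present, and binding was not measured.

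Hspa1a and Hspa1b encode the same inducible HSP70, the chaperone that takes up unfolded chains with the help of ATP, and lie side by side on chromosome 17 (GRCm38, GENCODE M21: Hspa1a at chr17:34969190-34972156, Hspa1b at chr17:34956436-34959238, both on the minus strand). Hspa1a had 0, 135 and 2932 UMIs in libraries 1, 2 and 3. Its level was 0, 5.6 (95% Poisson interval 4.7 to 6.63) and 148 (143 to 154) CPM. These intervals, like all others here, cover counting error only and not the spread between animals. Those of UMI counts also leave out any spread between cells beyond Poisson. Library 3 stood 26.5 times above library 2 (22.3 to 31.7) and, with the count of 0 put at 3 UMIs (2.23 CPM), at least 66.4 times above library 1. The lower end of the exact interval of the latter ratio was 54, and in cells thinned to equal depth, which hold fewer UMIs, the same rule gave at least 39.2. Hspa1b was close to silent in all libraries, with 0, 6 and 19 UMIs, and its ratio of library 3 over library 2 was 3.86 (1.48 to 11.8). Hspa1a thus took 99.36% of the UMIs of the pair in library 3 (exact binomial interval 99% to 99.61%) and 95.74% in library 2 (90.97% to 98.42%). The copies share 49.3% of all stretches of 90 bases of the Hspa1a transcript but 0% of those in its last 500 bases, the part that 3′ libraries mostly read. How reads that match both copies were counted is not given in the sources used here, so the split between them is uncertain. A predicted gene, Gm20481, overlaps Hspa1a on the other strand.

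Hspb1 encodes HSP27, a small heat shock protein that holds unfolded proteins without ATP (chr5:135887919-135889563, plus strand). It had 1, 14 and 1167 UMIs, or 0.745 (0.0189 to 4.15), 0.581 (0.318 to 0.975) and 59 (55.7 to 62.5) CPM. Libraries 1 and 2 overlapped and library 3 lay apart from both, 102 times above library 2 (60.3 to 186). Among the 8130 genes with a mean of at least 10 CPM over the 3 libraries, Hspb1 had the highest ratio of library 3 over library 2, and Hspa1a ranked 4. Both genes passed that minimum only through library 3. Their gap in this same contrast was known when the list was chosen, so nothing is read from these ranks. Hspb3, another small heat shock protein, went the other way, at 52.1, 52.2 and 34 CPM, and was the only gene of the 8 others on the small heat shock protein list to reach the minimum.

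Dnajb1 encodes HSP40, which brings substrates to HSP70 and starts its ATP cycle (chr8:83608193-83612653). Its 47, 1566 and 5028 UMIs gave 35 (25.7 to 46.5), 65 (61.8 to 68.3) and 254 (247 to 261) CPM, so the libraries were ordered 1, 2, 3 without overlap, with library 3 at 3.91 times library 2 (3.7 to 4.14). Hsph1 encodes HSP110, which exchanges the nucleotide of HSP70 (chr5:149614287-149636376). It was sparse, at 8.93 (4.62 to 15.6), 11.5 (10.2 to 12.9) and 20.8 (18.9 to 23) CPM. Libraries 1 and 2 overlapped, and library 3 was 1.81 times library 2 (1.55 to 2.12). Hsp90aa1, the stress-inducible form of cytosolic HSP90, which matures kinases and steroid receptors (chr12:110690605-110702728), stood at 83.4 (68.7 to 100), 219 (213 to 225) and 362 (354 to 371) CPM. Its step from library 1 to library 2, 2.63 times (2.18 to 3.2), was the wider one, and library 3 was 1.65 times library 2 (1.6 to 1.71).

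**Figure D1:**
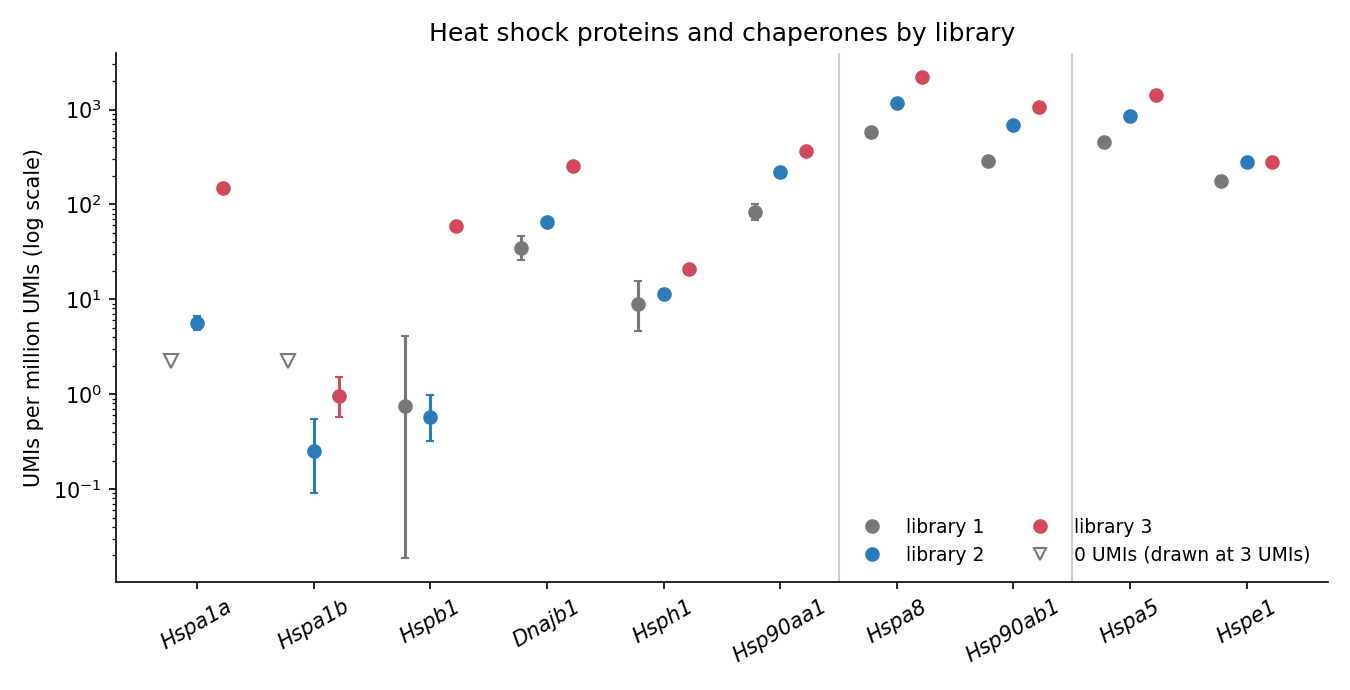
CPM (UMIs per 1000000 UMIs, log scale) of the 10 genes in libraries 1, 2 and 3, grouped by vertical lines into inducible, constitutive and organelle chaperones; points are library totals and bars are 95% Poisson intervals, which cover counting error only. Hspa1a spans from 0 UMIs in library 1 (triangle, drawn at 3 UMIs) to 148 CPM in library 3, whereas Hspe1 sits at 283 and 280 in libraries 2 and 3.

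The constitutive chaperones had the order 1, 2, 3 as well. Hspa8, the housekeeping HSP70 (HSC70) that also strips clathrin from vesicles (chr9:40800984-40810087, with 3 small nucleolar RNA genes inside it), had 582 (542 to 625), 1174 (1160 to 1188) and 2178 (2158 to 2199) CPM. Each library stood clear of the next, by 2.02 times from 1 to 2 (1.88 to 2.17) and 1.86 times from 2 to 3 (1.83 to 1.88). Hsp90ab1, the constitutive cytosolic HSP90 (chr17:45567775-45573271), had 288 (260 to 318), 693 (682 to 703) and 1058 (1044 to 1072) CPM. Its ratio was 2.4 from library 1 to 2 (2.17 to 2.67) and 1.53 from 2 to 3 (1.5 to 1.56). Both genes have processed copies elsewhere in the mouse genome, and whether such copies took reads was not tested.

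Of the organelle chaperones, Hspa5 had the order 1, 2, 3 and Hspe1 did not. Hspa5 encodes BiP, the HSP70 of the endoplasmic reticulum (chr2:34771970-34777547), and had 450 (415 to 488), 855 (843 to 867) and 1418 (1401 to 1434) CPM. Library 3 was 1.66 times library 2 (1.63 to 1.69). Hspe1 encodes HSP10, the lid of the mitochondrial chaperonin HSP60 (chr1:55088132-55091307, overlapping Hspd1, which encodes HSP60, on the other strand). It had 177 (155 to 201), 283 (276 to 289) and 280 (273 to 288) CPM, so libraries 2 and 3 overlapped, with a ratio of 0.992 (0.957 to 1.03). Its partner Hspd1 stood at 65.5, 119 and 151 CPM, with library 3 at 1.27 times library 2 (1.2 to 1.34). The run of 4 units printed for Hspe1 lies in the window of 1 RefSeq start of Hspd1 (chr1:55087933-55088182). It is not in that of another start (chr1:55088244-55088493), and its part in these levels was not tested.

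Counted together, 3 of the 10 genes (Hspa1a, Hspb1 and Dnajb1) passed a CPM ratio of 2 for library 3 over library 2 at a mean of at least 10 CPM, Hspa1b lay past the ratio but below that minimum, and none was lower by as much. Of all 8130 genes at this minimum, 1.34% were higher by 2 times or more and 2.13% lower, and since this contrast chose the list, nothing is read from the count. Those just outside the ratio were Hspa8 (1.86) and Hsph1 (1.81), and the nearest inside it was Dnajb1 (3.91). For library 3 over library 1 the count was 8, or 7 by the mean of per-cell CPM, where Hsph1 fell to 1.86 from 2.33, with 3.97% of 8128 genes higher and 5.81% lower. The 2 genes outside were Hspe1, with a ratio of 1.58 (1.39 to 1.81), and Hspa1b. For library 2 over library 1 the count was 4 (Hspa1a, Hsp90aa1, Hspa8 and Hsp90ab1), with 4.93% of all genes higher and 4.45% lower, and Hspa1a was among them only through the count of 0 put at 3 UMIs (at least 2.51 times, with 2.01 as the lower end of the exact interval). The median ratio of the 10, 9 and 9 members that gave one, with Hspa1a at its bound against library 1, was 1.83, 3.74 and 1.9 for the 3 pairs, on the log2 scale 0.88, 1.90 and 0.92, beside medians of -0.03, -0.10 and -0.10 over all genes. The 3 pairs share libraries, so none is independent of the others, and library 1 is both small and shallow.

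The other chaperone and cofactor genes, on lists drawn up with earlier results known, were set beside all genes. For library 3 over library 2, 1.34% of all 8130 genes were at least 2 times higher and 2.13% lower by as much. Tested were 5 members of the HSP70 and HSP110 list, 21 J-domain proteins, 13 HSP90 partners, 9 HSP70 cofactors and 8 chaperonins. None passed a ratio of 2 in either direction, which is near those shares, so nothing is read from it. The list medians were 0.45, 0.11, 0.21, 0.13 and 0.33 on the log2 scale, beside -0.03 over all genes. The highest and lowest of each list were Hspa4 (1.46) and Hspa14 (0.957), Dnajb5 (1.93) and Dnajc10 (0.785), Ppid (1.29) and Fkbp5 (0.778), Bag6 (1.27) and Bag1 (0.624), and Cct3 (1.36) and Cct7 (0.989). Dnaja1, a J-domain partner of HSP70 that is also stress-inducible, had 125, 181 and 286 CPM in libraries 1, 2 and 3, a ratio of 1.58 (1.52 to 1.65) for library 3 over library 2. Bag3, an HSP70 cofactor that HSF1 induces along with Hspa1a and Hspb1, stood at 11.9, 9.88 and 11.1 CPM, with a ratio of 1.12 (0.929 to 1.35). HSF1 itself had 26.1, 24.9 and 29.7 CPM for Hsf1, and Hsf2 was below the minimum at 11.2, 8.01 and 6.12. Hsbp1, a small protein that binds HSF1, was the lower of the 2 genes of that list at the minimum (0.849), the other being Hsf1 (1.19).

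For library 3 over library 1, 3.97% of all 8128 genes were at least 2 times higher and 5.81% lower by as much. In these 5 lists 6 of the 8 chaperonins passed the ratio, led by Hspd1 (2.31), as did Dnaja1 (2.29), and no gene was lower by 2 times. The other 3 genes past it, named here after their values were seen, were Stip1 (2.48), the adaptor between HSP70 and HSP90, Cacybp (2.13), another HSP90 partner, and Hspbp1 (3.18), which acts on the nucleotide of HSP70. Of the stress lists, 1 of 19 endoplasmic reticulum genes passed for library 3 over library 2, Atf4, the transcription factor of the integrated stress response, with 106, 112 and 228 CPM and a ratio of 2.04 (1.95 to 2.14). Its target Ddit3 had 37.2, 49.2 and 74.1 CPM and the HSP90 of the reticulum, Hsp90b1, had 537, 760 and 729, while Sdf2l1 was the lowest of the list (0.772). Neither the 6 mitochondrial stress genes, from Hspa9 (1.39) to Atf5 (0.796), nor the 6 tested oxidative and metal stress genes, from Sqstm1 (1.73) to Gclm (0.785), had one past the ratio, and Hmox1 stood at 38.7, 36.2 and 41.1 CPM. All 19 tested immediate early genes did, from Rhob (3.22) to Dusp1 (35.7), and 13 of 19 proliferation genes were lower, down to Birc5 (0.0147). Their part in the levels of the heat shock genes was not tested.

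**Figure D2:**
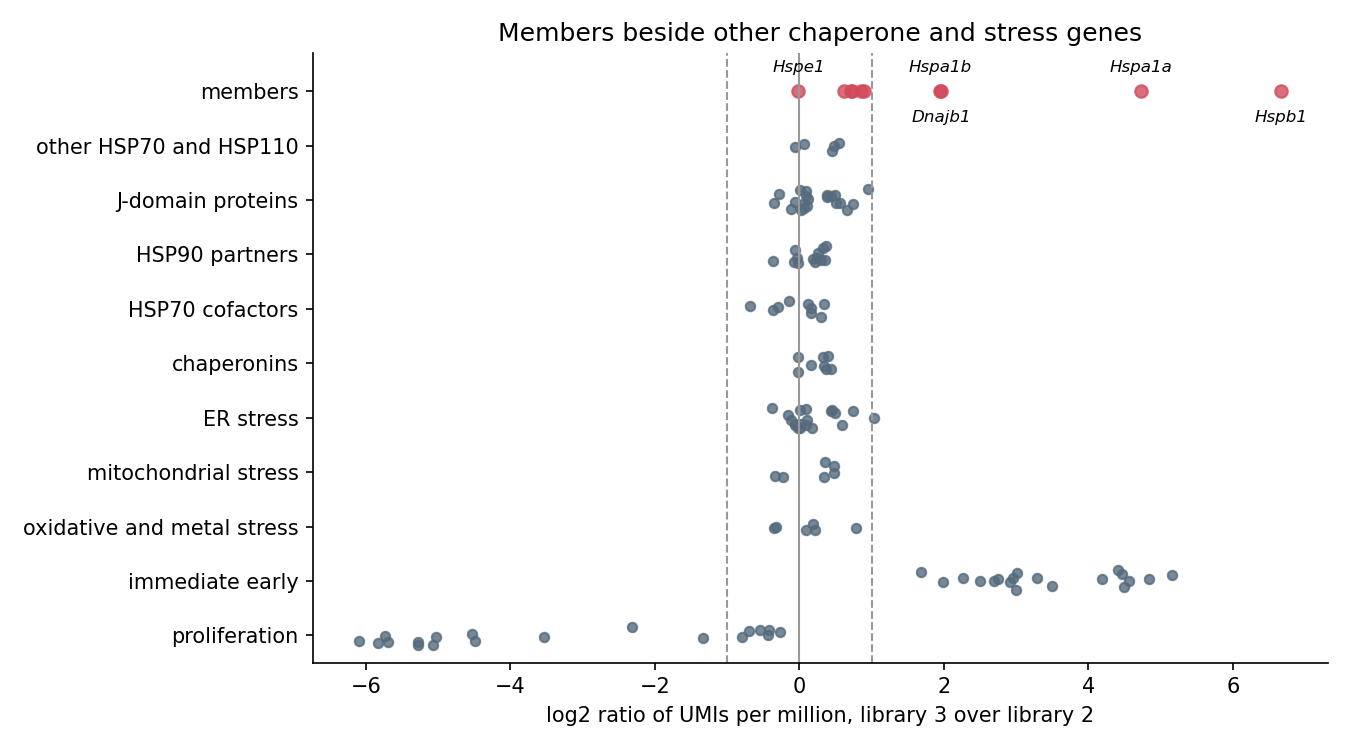
Log2 ratio of CPM, library 3 over library 2, for the 10 members (red) and for genes with a mean of at least 10 CPM on other lists (grey, spread vertically at random). The small heat shock protein and heat shock factor lists are not drawn. Dashed lines mark a ratio of 2 in either direction. Hspb1 (6.67), Hspa1a (4.73), Dnajb1 (1.97) and Hspa1b (1.95) lie right of the line, where Atf4 (2.04 times) is the only other chaperone or stress gene and the immediate early genes lie as well.

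To compare shares of cells, each cell with at least 2000 UMIs was thinned at random to 2000, which kept 408, 3569 and 3284 cells of libraries 1, 2 and 3 and left out 201, 22 and 38. Hspa1a was found in 0 of 408 cells of library 1 (exact binomial upper bound 0.9%), in 0.672% of library 2 (0.431% to 0.999%) and in 19.6% of library 3 (18.2% to 21%). Before thinning the shares were 0%, 2.67% and 40.1%. Hspb1 was found in 0.245%, 0.112% and 9.14% (8.17% to 10.2%) of thinned cells, and in 23.2% of library 3 before thinning. Dnajb1 was found in 6.62% (4.41% to 9.48%), 11.6% (10.5% to 12.7%) and 37.4% (35.7% to 39%), and before thinning in 7.55%, 33.8% and 70.8%. At equal depth the intervals of library 3 lay above those of the others for these genes, whereas those of libraries 1 and 2 overlapped for Hspa1a and Hspb1. How many of all genes lie apart in this way was not counted. Hspa1a and Hspb1 also belong to the contrast that chose the list, so nothing is read from it. Nearly all cells were microglia, so no cell type that lacks these genes was at hand to measure free RNA, and its part was not tested. The shares near 0 of Hspa1a and Hspb1 in libraries 1 and 2 do not measure free RNA in library 3, since those libraries held few UMIs of either gene.

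The other genes, apart from Hsph1 and Hspa1b, were found in larger shares of cells. At equal depth Hsp90aa1 was found in 15.2%, 31.9% and 47.6% of cells, Hspa8 in 70.3%, 89.3% and 97.8%, Hsp90ab1 in 42.6%, 72.9% and 84.8%, and Hspa5 in 54.9%, 78.8% and 91% (before thinning in library 3, 80.9%, 99.9%, 97.9% and 99.1%). Hsph1 was found in 1.72% (0.693% to 3.5%), 2.35% (1.88% to 2.91%) and 4.23% (3.57% to 4.98%), where libraries 2 and 3 were apart and library 1 overlapped library 2. Hspe1 was found in 42.4% (40.7% to 44%) and 41.5% (39.8% to 43.2%) of libraries 2 and 3, which overlapped, and in 30.4% (26% to 35.1%) of library 1. Hspa1b was found in 0, 1 and 3 thinned cells. The median cell of library 3 held 4 UMIs of Hspa8 (5th to 95th percentile 1 to 8), 2 of Hsp90ab1 (0 to 5) and 2 of Hspa5 (0 to 6), against 0 of Hspa1a (0 to 1).

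Of the 8 members with a mean of at least 0.1 UMI in library 3, Hspa1a and Hspb1 had the widest spread between cells. Hspa1b and Hsph1 were too sparse to be read. If each cell drew Hspa1a at the same rate, the mean of 0.288 UMIs would leave 74.9% of cells at 0 and put 10.6 cells at 3 UMIs or more, but 80.4% were at 0 and 71 cells reached 3, the highest at 10. For Hspb1, with a mean of 0.107, 8 cells reached 3 UMIs where 0.622 were given by the Poisson distribution, and the highest had 7. The squared coefficient of variation beyond Poisson, which is 0 for pure counting noise, was 3.36 for Hspa1a and 3.29 for Hspb1, ranks 6 and 7 of the 3161 genes with a mean of at least 0.1 UMI, whose median was 0.0362 and 95th percentile 0.355. Dnajb1 (0.301) and Hsp90aa1 (0.264) were below that percentile, and Hspa5 (0.121), Hsp90ab1 (0.0925), Hspa8 (0.0542) and Hspe1 (-0.0304) lower still. Before thinning, 1331 of the 3322 cells had a UMI of Hspa1a, 37 cells had 10 or more, the highest 27, and the 332 cells with the most held 60% of its UMIs. In library 2, 96 cells had Hspa1a, 9 of them with 3 UMIs or more, and 2 of the 96 carried a barcode that library 3 also holds. There Hsp90aa1 had the widest spread of the 6 genes that could be read (0.277, rank 234 of 3151), and Hspa8 (0.0216) and Hsp90ab1 (0.0101) stayed near 0.

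**Figure D3:**
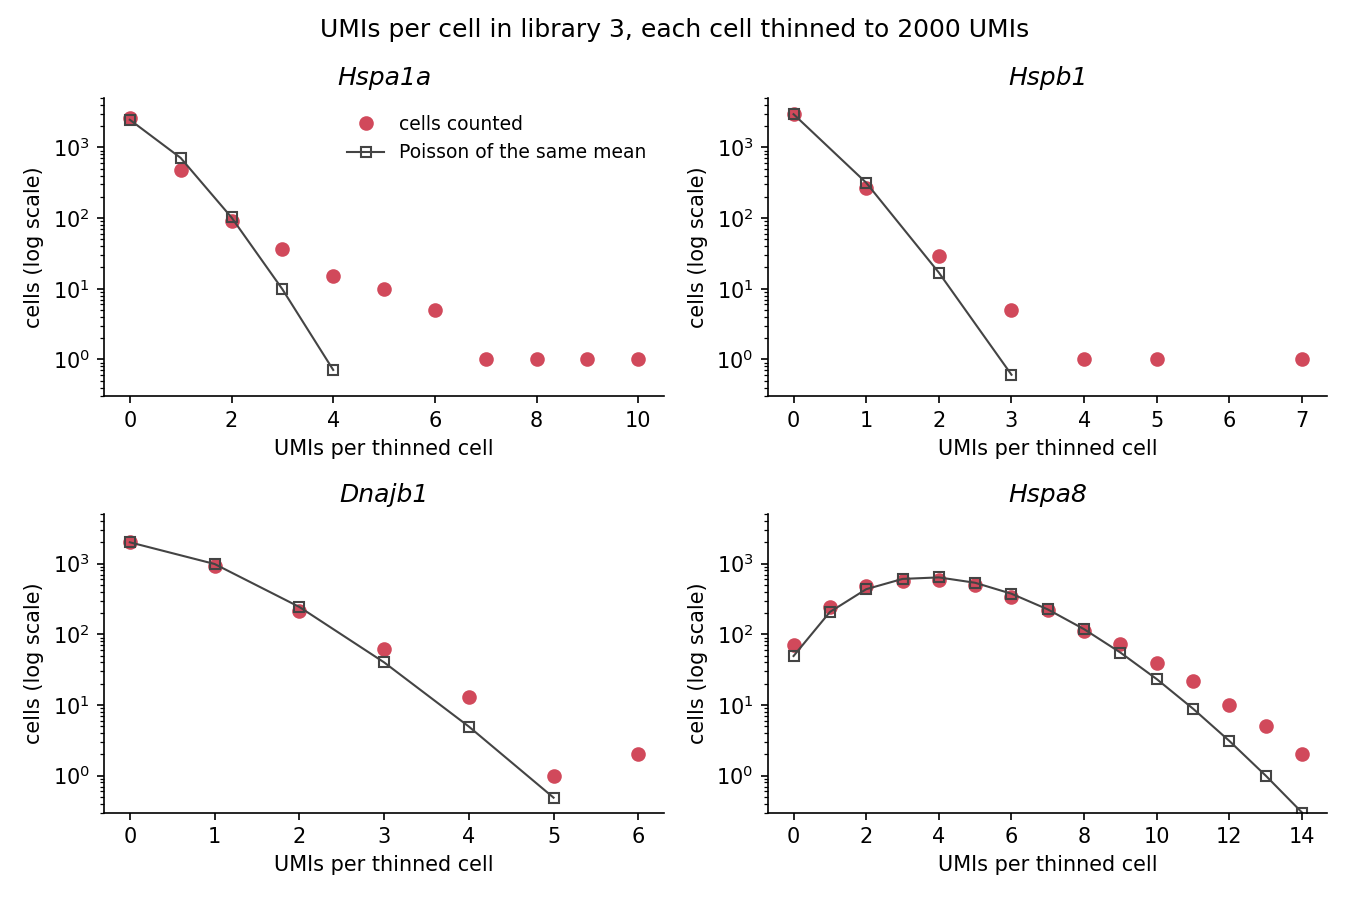
Number of cells (log scale) by UMIs per cell in library 3 after thinning each cell to 2000 UMIs, for Hspa1a, Hspb1, Dnajb1 and Hspa8; red points are counted cells and open squares joined by a line are the numbers a Poisson distribution of the same mean gives. Hspa1a has 71 cells at 3 UMIs or more against 10.6 and Hspb1 has 8 against 0.622, whereas the points of Hspa8 lie within 1.5 times of the line from 0 to 9 UMIs per cell and above it from there on.

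Correlations between the members were weak. Among the 28 pairs of the 8 genes with a mean of at least 0.1 UMI in library 3, Pearson's correlation of log counts across the 3284 thinned cells had a median of 0.020 and ran from -0.016 to 0.086 (Hspa5 with Hspa8). The 15 pairs of library 2 had a median of 0.012 and a highest of 0.067, and the 10 pairs of library 1 a median of 0.007 and a highest of 0.093. Without thinning, in counts scaled per cell, the median of library 3 was 0.078 and the highest 0.184. Such values in sparse counts of 1 library are no finding. Hspa1a and Hspb1, the genes with the wide spread, had a correlation of 0.041: 73 cells held both, where 58.7 would by independence. Hspb1 was found in 11.4% of cells with Hspa1a (9.01% to 14.1%) and in 8.6% of those without (7.55% to 9.73%). These intervals overlap, which does not decide whether the shares differ, and their difference was not tested. In a split chosen after the data were seen, the 71 cells with 3 or more thinned UMIs of Hspa1a were set beside the 2641 cells with 0. Hsp90ab1 was 1.39 times higher in the former (1.2 to 1.6), Dnajb1 1.55 times (1.16 to 2.04), Hspa8 1.22 times (1.09 to 1.35) and Hspa5 1.21 times (1.06 to 1.38), and the intervals of Hspb1 (0.476 to 2.23), Hsp90aa1 (0.881 to 1.51) and Hspe1 (0.663 to 1.32) held 1. The former cells were also deeper before thinning, with a median of 6498 UMIs against 5697, and held more immediate early UMIs, 75.3 against 60.6 per thinned cell. Hspb1 was uneven over the classes, with a mean of 0.101 UMIs at 0 UMIs of Hspa1a (0.0893 to 0.114) and 0.108 at 1. In the 90 cells with 2 UMIs of Hspa1a it was 0.278 (0.18 to 0.41), and at 3 or more 0.113 (0.0486 to 0.222).

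The genes whose counts were most like the sum of the 6 inducible members across the cells of library 3 were Jun (0.134), Junb (0.116), Btg2 (0.114), Fos (0.111) and H3f3b (0.103), of 3153 genes whose 5th to 95th percentile ran from -0.034 to 0.033. For the sum of Hspa8 and Hsp90ab1 they were the chemokines Ccl12 (0.163) and Ccl2 (0.108), then Zfp36l1 (0.088), Gapdh (0.088) and Cfl1 (0.081). All of these are weak.

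The immediate early list was then used to split the cells of each library. Jun, Junb, Btg2 and Fos are on this list, so in library 3 the split and the correlations above rest on the same counts. In library 3 the 1094 cells with the most early gene UMIs held 0.38 UMIs of Hspa1a per thinned cell and the 1094 with the fewest held 0.166, a ratio of 2.29 (1.92 to 2.74). The ratio was 1.67 (1.27 to 2.2) for Hspb1, 1.6 (1.41 to 1.81) for Dnajb1, 1.22 (1.1 to 1.36) for Hsp90aa1, 1.2 (1.14 to 1.26) for Hspa5 and 1.09 (1.05 to 1.14) for Hspa8. Hsp90ab1 was slightly lower (0.942, 0.887 to 1), and the intervals of Hspe1 (0.926, 0.824 to 1.04) and Hsph1 (1.09, 0.714 to 1.66) held 1. The former cells were deeper before thinning, with a median of 5992 against 5021 UMIs. The split was also made within each of 4 depth classes, a choice made after the data were seen. The ratio of Hspa1a and its counting interval lay above 1 in all 4 (1.96, 2.48, 1.51 and 2.71 from the shallowest to the deepest class). For Dnajb1 both did so in the 3 shallower ones (2.02, 1.52 and 1.56, then 1.12). The wide spread of Hspa1a between cells is not in these intervals, which are therefore too narrow for it. Its interval closest to 1 was that of the third class (1.1 to 2.08). Hsp90aa1 had 1.07, 1.33, 1.06 and 0.996, with an interval above 1 in 1 class, and Hspa5 1.06, 1.24, 0.966 and 1.14, with 2 such classes. For Hspb1 the values were 1.83, 1.12, 1.61 and 0.975 and for Hspa8 1.04, 1.08, 0.967 and 1.03, and their intervals reached down to 1 or below it. Hsp90ab1 went the other way in the deeper classes, with 1, 0.931, 0.872 (0.776 to 0.98) and 0.774 (0.693 to 0.863). In library 2, whose early gene UMIs averaged 7.2 per thinned cell against 61.5 in library 3, the same split gave 1.1 for Hspa5 (1.03 to 1.17), 0.881 for Hspe1 (0.79 to 0.983) and intervals that held 1 for Dnajb1, Hsph1, Hsp90aa1, Hspa8 and Hsp90ab1. Hspa1a, with 11 against 8 UMIs there, could not be resolved (0.504 to 3.94). In library 1, with 136 cells on each side, Hsp90ab1 was higher (1.37, 1.01 to 1.87), the opposite of library 3, and the intervals of Dnajb1, Hsph1, Hsp90aa1, Hspa8, Hspa5 and Hspe1 held 1. Whether the ratios of the libraries differed beyond the spread between animals was not tested.

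**Figure D4:**
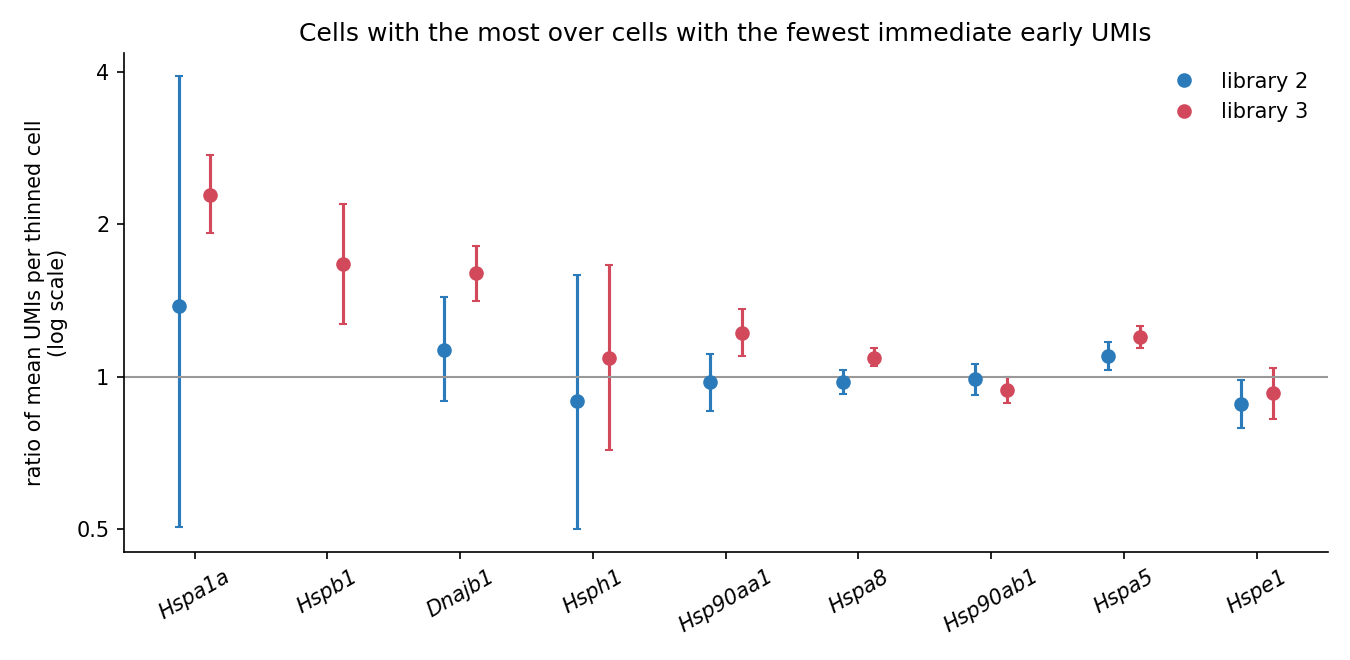
Ratio of mean UMIs per thinned cell (log scale) between the cells with the most and the cells with the fewest immediate early UMIs, for 9 genes in library 2 (1189 cells on each side) and library 3 (1094 on each side); bars are 95% intervals that cover counting error only. In library 3 Hspa1a (2.29), Hspb1 (1.67) and Dnajb1 (1.6) lie highest, whereas Hsp90ab1 (0.942) and Hspe1 (0.926) lie below 1; Hspb1 has no value in library 2, where 1 side held 0 UMIs.

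The cells were also split by the proliferation list. Cells with UMIs of at least 2 different genes of the proliferation list numbered 15, 1850 and 266 in libraries 1, 2 and 3, against 324, 654 and 2072 cells with none, and the 15 were too few to compare. In library 2 Hsp90aa1 averaged 0.437 UMIs per thinned cell in the former and 0.369 in the latter, a ratio of 1.19 (1.03 to 1.37). The intervals of Hspa8 (0.964 to 1.09), Hsp90ab1 (0.944 to 1.11), Hspa5 (0.987 to 1.14), Hspe1 (0.923 to 1.17) and Dnajb1 (0.703 to 1.17) held 1, and Hspa1a had 18 UMIs against 1, a ratio of 6.36 (1 to 265). In library 3 the 266 cells held more Hspa1a, 0.383 against 0.262 (1.46 times, 1.17 to 1.81), more Hsp90ab1, 2.39 against 1.97 (1.21 times, 1.11 to 1.32), more Hspa8 (1.11 times, 1.04 to 1.18) and more Hspa5 (1.09 times, 1.01 to 1.17). The intervals of Hspb1 (0.915 to 1.92), Dnajb1 (0.836 to 1.21), Hsp90aa1 (0.884 to 1.21) and Hspe1 (0.913 to 1.3) held 1. Cells with proliferation genes were deeper in both libraries, 6524 against 5621 and 6416 against 5660 UMIs.

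In libraries 2 and 3 most members had higher levels in deeper cells. From the shallowest to the deepest of 4 depth classes of library 3 (medians of 4016, 5223, 6260 and 7922 UMIs), Hspa1a had 110, 112, 144 and 191 CPM, Hsp90aa1 273, 319, 373 and 421, and Hspa8 1853, 2011, 2192 and 2416. Hspb1 went from 48.8 to 63.3 and Hspe1 from 246 to 315. In library 2 (medians of 4184 to 9866 UMIs) Hsp90aa1 went from 173 to 270 CPM, Hspa8 from 1050 to 1275 and Hspa5 from 706 to 985, whereas Dnajb1 stayed between 62.7 and 67.5. Library 1 was mixed: Hspa8 had 456, 514, 650 and 623 CPM and Hsp90ab1 187, 275, 298 and 328, but Hspa5 had 510, 447, 458 and 424 and Dnajb1 38.4, 47.9, 32.5 and 27.2. The shallowest cells of library 3 held 110 CPM of Hspa1a and the deepest of library 2 held 7.41. This gap belongs to the contrast that chose the list, and the part of depth in it was not tested. Library 1, at a median of 2218 UMIs, lies below the median of the shallowest class of both, so its lower levels and its depth cannot be told apart.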

How the data were processed

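Single-cell libraries of YFP (+) cells of the lumbar cord were made with a Chromium 3′ kit after sorting with doublet exclusion. The study's methods name filters on cells, without thresholds. The authors deposited raw counts of UMIs per gene and cell as 1 matrix of 27998 genes and 7522 cells. The submitters' processing notes name Cell Ranger 2.1.1 and mm10. How reads matching several genes were counted is not given in the sources used here. Libraries were told apart by barcode suffix. No doublet caller was run and every cell was kept. UMIs were summed per library and scaled to 1000000 (CPM). With 1 library per group no test between groups was made. Ratios have exact conditional intervals, levels exact Poisson and shares exact Clopper-Pearson intervals, all at 95%, and a count of 0 was set at 3 UMIs. Ratios over all genes were taken at a mean of at least 10 CPM. For values per cell, cells were thinned to 2000 UMIs without replacement (seed 1). The members and all gene lists were chosen with earlier results of these data known. Genes named are the members, the highest and lowest of each list, 9 further stress genes and the 5 most like each of 2 sums. Loci are from GENCODE M21 and upstream windows from RefSeq. A chaperonin, Cct6a, was not found by symbol. The ratio, thinning, spread and correlation steps were tested on simulated data, and the other steps were not. The genes simulated for spread and correlation had higher means than Hspa1a and Hspb1, so these steps were not tested on counts as sparse. Alternatives changed the cell filter, scaling, thresholds, thinning and correlation. Scripts ran in Python 3.11.15 with matplotlib 3.10.9, scipy 1.17.1 and numpy 2.4.6.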

Additional observations from a re-analysis of the deposited data

How the results depend on the processing

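The count of members at least 2 times higher in library 3 than in library 2 was 3, with Hspa1a, Hspb1 and Dnajb1, under every other scaling and cell filter run (cells with at least 200 genes, 500 UMIs and at most 10% mitochondrial UMIs, median-of-ratios size factors, totals without mitochondrial and immediate early genes, thinned cells, means of per-cell CPM, and the 2 chosen after seeing the data, no shared barcodes and a mean CPM over libraries 2 and 3). The share of all genes past the ratio was 1.31% to 1.46% under these alternatives. A ratio of 1.5 gave 8 members, beside 3.6% of all genes, and a ratio of 4 gave 2, beside 0.529%. For library 3 over library 1 the count of 8 became 9 at a ratio of 1.5 and 4 at a ratio of 4, beside 11.7% and 0.849% of all genes. By the mean of per-cell CPM it was 7, beside 3.99%, and Hsph1 (1.86) dropped out. For library 2 over library 1 the count of 4 became 7 at 1.5 and 0 at 4, beside 12.9% and 1.33%. In thinned cells it was 2, beside 4.89%. There Hspa8 fell to 1.95. Hspa1a gave no ratio, since its level in library 2 lay below that of the 3 UMIs set for library 1. Median-of-ratios scaling moved the median of all genes by 0.20 (log2) for library 3 over library 1. For library 2 over library 1 it moved this median by 0.16 and gave 6 members, beside 7.07% of all genes. The share of all genes at least 2 times higher, 1.34% for library 3 over library 2, was 2.65% at a mean of at least 1 CPM and 2.05% at 50, and for library 3 over library 1 it was 6.53% under median-of-ratios scaling (3.97%). No called ratio of a member changed direction, and 147 of 167 ratios stayed within their counting interval. The widest moves were those of genes near 0. For library 3 over library 1, Hspb1 (79.3) had 43.7 in thinned cells and 133 by the mean of per-cell CPM, and the bound of Hspa1a (66.4) was 39.2 in thinned cells. For library 2 over library 1, Hspb1 (0.78) had 1.26 by the mean of per-cell CPM. For library 3 over library 2, in thinned cells, Hspb1 (102) had 63.8 and Hspa1a (26.5) had 39.6. Shares of cells moved in 99 of 150 values over other thinning depths, no thinning, a threshold of 2 UMIs and a second seed. The second seed moved 2 of them, and only 9 cells of library 1 reached 4000 UMIs. The spread of Hspa1a lay between 3.22 and 3.36 and that of Hspb1 between 3.29 and 3.59. Without thinning, correlations rose to a median of 0.078 and a highest of 0.184 in library 3. No library could be left out of a group, since each group has 1. Depth limits library 1 most: of its 1343055 UMIs, the 3 UMIs set for a count of 0 are 2.23 CPM.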
